A study of Mus musculus with 9 samples.

Results

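Clustered histone genes are described here in CD11b+Gr1+ cells of the mouse spleen, the surface phenotype shared by neutrophils, monocytes and their precursors. The members are the rows of the authors' deposited table of significant changes whose symbol begins with Hist1h, Hist2h, Hist3h or Hist4. This gave 10 rows, each of a different gene, among 964 named rows of that table and 31648 rows of the whole array table. The 10 are Hist1h3g (current name H3c8), Hist1h1b (H1f5), Hist1h2bh (H2bc9), Hist1h4k (H4c12), Hist1h1a (H1f1), Hist1h2ab (H2ac4), Hist1h2bg (H2bc8), Hist2h4 (H4c14), Hist4h4 (H4f16) and Hist1h4h (H4c8).

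RNA was measured on expression arrays for 6 single mice with tumours, of genotype L2-Cre;p120f/f, and for 3 control pools, each of 3 animals without disease, of genotype L2-Cre;p120+/f. Both groups carry L2-Cre, a Cre transgene under an Epstein-Barr virus promoter that is active in the squamous lining of the oral cavity and oesophagus, and a floxed allele of p120 catenin; the mice with tumours have 2 floxed alleles and the controls 1. The strain is labelled as a mixed C57BL/6x129 background for every sample and the animals' ages are not stated; other label fields name an embryonic stage, limb tissue and another mutation, contradict the titles and were not used. Tumour, genotype and pooling all follow the group, so their parts cannot be told apart, and a bulk measurement does not separate more cells of a type from more RNA per cell. Itgam and Ly6g, which encode the sorted surface antigens or part of them, have no named row and were not analysed here.

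Histones package DNA. The core histones H2A, H2B, H3 and H4 form the nucleosome, and the linker histone H1 binds the DNA between nucleosomes. Most of their genes lie in clusters as many near-identical copies and are transcribed in S phase, when newly copied DNA needs new nucleosomes. Their mRNAs end in a stem-loop in place of a poly(A) tail and are degraded when DNA synthesis stops. Complementary DNA was primed here with both poly(T) and random oligomers, per the labels' protocols. In the bone marrow, dividing neutrophil precursors carry these transcripts, and mature neutrophils no longer divide.

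All 10 clustered histone rows were higher in the tumour-bearing mice, by 1.04 to 4.29 on the log2 scale, and the median difference was 1.68. The members were selected on this same contrast: the authors' table, with 3.05% of all rows and 1.62% on the higher side, took rows by a p under 0.001 and at least a 2-fold difference between the groups. These values are therefore a description with no test. In each of the 10 the lowest mouse lay above the highest pool. Over all rows of the array, 15.4% had all 6 mice above all 3 pools, 23.2% were called in either direction by limma, 14.3% were called higher and 1.77% were called higher by at least 2-fold. The median difference was 0.02 over all rows and 1.40 over the 513 named rows that were higher. By type, the members were 1 of 12 protein-coding H3 genes that RefSeq lists under a clustered histone name, 2 of 6 H1 genes, 1 of 18 H2A genes, 2 of 18 H2B genes and 4 of 13 H4 genes. Apart from the H4 gene H4c17, whose row is named LOC100041230 and falls outside the naming rule, the other clustered genes have no named row and were not analysed here.

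**Figure D1:**
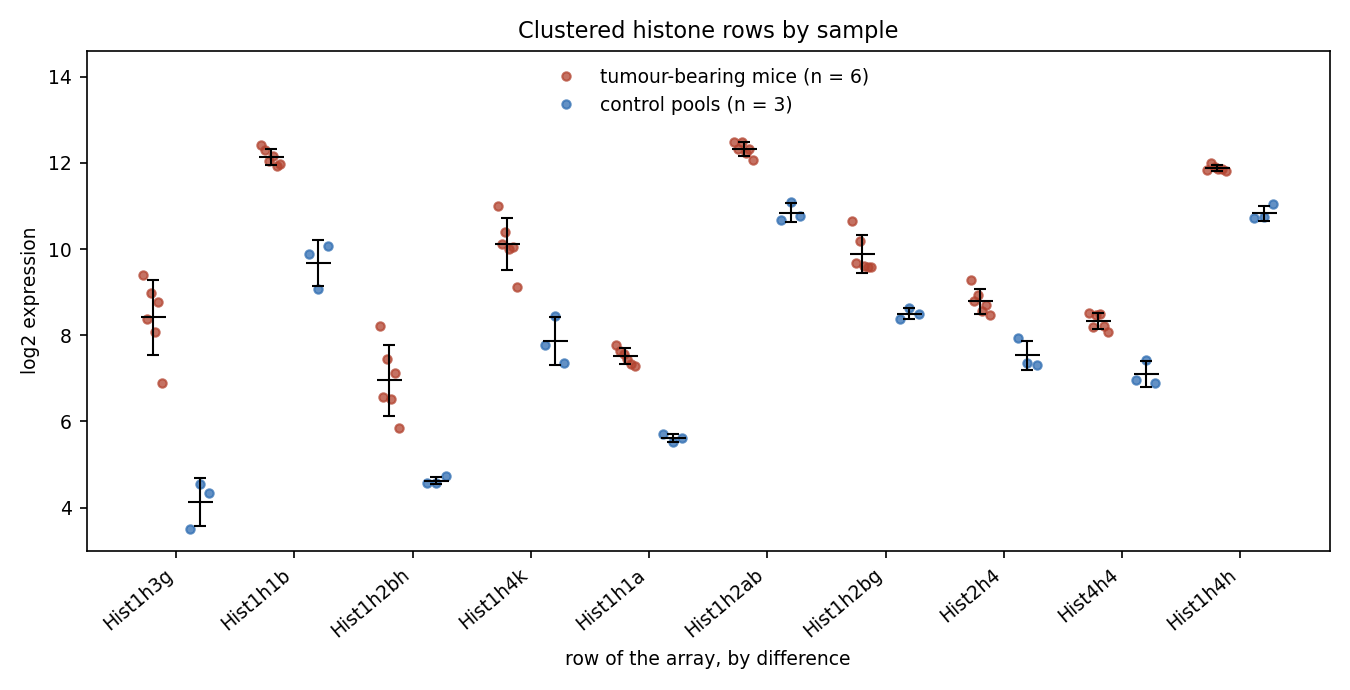
Log2 expression (vertical axis) of the 10 clustered histone rows in 6 tumour-bearing mice and 3 control pools; points are samples, and bars show the mean and SD. In each row the mice lie above the pools, and the spread among mice is widest for Hist1h3g and Hist1h2bh.

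Hist1h3g, a gene for the replication-dependent H3.1 protein, had the largest difference of the members and the second largest of the 513 named rows that were higher. Its log2 expression in the tumour-bearing mice had a lowest value of 6.89, a median of 8.56 and a highest value of 9.40, against 3.50, 4.55 and 4.33 in the control pools. The groups did not overlap, and the lowest mouse exceeded the highest pool by 2.34. The means were 8.41 ± 0.88 (SD, n = 6 mice) and 4.13 ± 0.55 (SD, n = 3 pools), a difference of 4.29 ± 0.52 (SE of the limma fit), or 19.5-fold. All 3 pools lay below the median of their array, and array medians ran between 5.92 and 5.99. The files hold no detection call, so the pools' level may be a bound and not a measured level. The row carries the accession NM_145073. Its probes may also read other H3 copies, whose likeness to this gene was not computed here.

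RefSeq places 8 of the 10 members in the histone gene cluster of chromosome 13. Among the 56 histone genes and pseudogenes listed there, the member with the largest difference and the one with the smallest lie close together: Hist1h4h is 25th, Hist1h3g 27th and Hist1h2bh 28th in order. Only the H2A gene H2ac10, which has no named row, stands between Hist1h4h and Hist1h3g. Their differences were 1.04, 4.29 and 2.33. Hist4h4 lies outside this cluster on chromosome 6, and Hist2h4 in the cluster of chromosome 3.

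**Figure D2:**
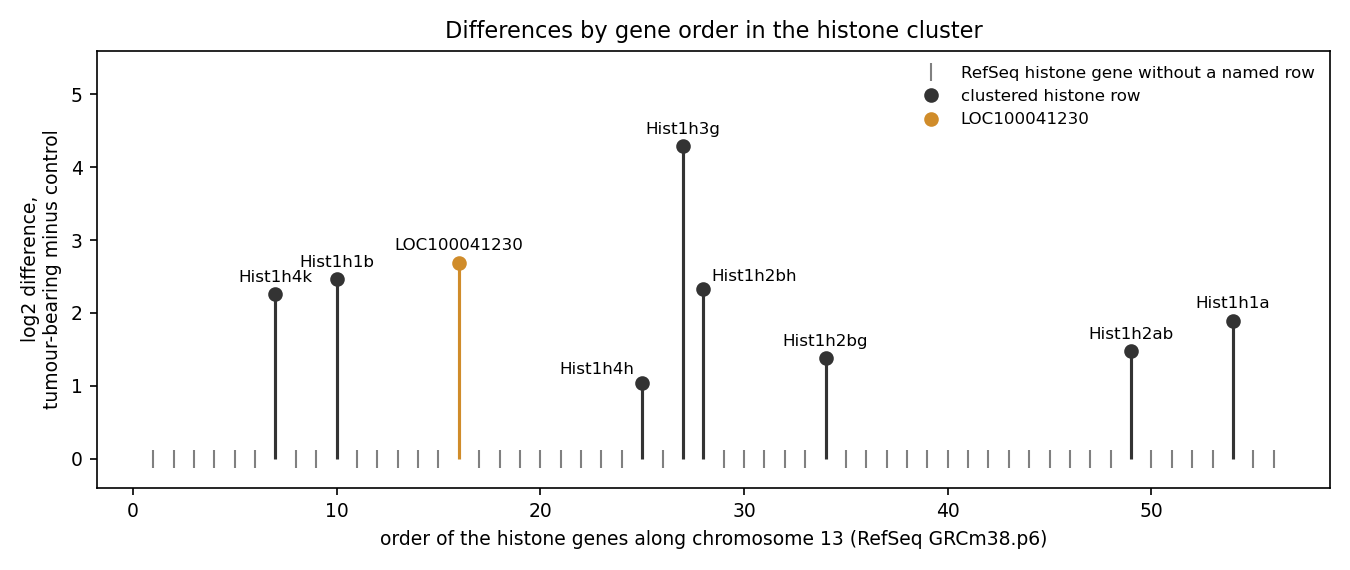
Log2 difference, tumour-bearing minus control (vertical axis), against the order of histone genes along chromosome 13 (horizontal axis); grey ticks are genes without a named row. The neighbours Hist1h4h and Hist1h3g hold the smallest and the largest difference of the members.

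The sequences before the starts of these 3 neighbours and of Hist1h1b, the linker histone row with the larger change, are shown because they are where histone promoters carry their CCAAT and TATA boxes. Each is the 180 bases before the annotated start, from RefSeq, build GRCm38.p6, while the authors' notes name mm9. Each is printed on the strand of its gene. Capitals mark TATAAA and CCAAT, the second also where it reads as ATTGG because it lies on the opposite strand; Hist1h4h has no capitals because it holds neither. The 180 bases shown for Hist1h3g lie at chr13:23535238-23535417, plus strand. Those for Hist1h2bh lie at chr13:23543445-23543624, minus strand. Those for Hist1h4h lie at chr13:23530864-23531043, plus strand. Those for Hist1h1b lie at chr13:21780626-21780805, minus strand.
Hist1h3g: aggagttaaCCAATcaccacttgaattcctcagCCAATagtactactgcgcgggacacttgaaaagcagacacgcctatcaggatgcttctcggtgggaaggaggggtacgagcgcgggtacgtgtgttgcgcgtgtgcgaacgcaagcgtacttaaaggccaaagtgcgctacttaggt
Hist1h2bh: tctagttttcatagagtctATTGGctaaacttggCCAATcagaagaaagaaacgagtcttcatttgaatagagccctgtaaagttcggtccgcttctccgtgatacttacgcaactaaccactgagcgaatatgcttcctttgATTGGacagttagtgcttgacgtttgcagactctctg
Hist1h4h: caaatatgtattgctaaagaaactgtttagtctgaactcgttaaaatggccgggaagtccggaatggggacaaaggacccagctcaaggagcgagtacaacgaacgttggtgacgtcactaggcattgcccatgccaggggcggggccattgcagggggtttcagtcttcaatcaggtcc
Hist1h1b: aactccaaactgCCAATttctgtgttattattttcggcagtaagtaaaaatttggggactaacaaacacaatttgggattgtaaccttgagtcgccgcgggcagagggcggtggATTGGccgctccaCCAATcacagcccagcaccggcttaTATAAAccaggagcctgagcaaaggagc

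In windows of 250 bases before to 50 bases after the start, which the RefSeq table gives for 9 of the 10 members (all but Hist2h4), CCAAT on either strand was present in 6 of 9. It was present in 37.4% of all 32851 promoter windows. TATAAA on either strand was present in 5 of 9, against 13.6% of all windows. Hist1h3g and Hist1h2bh held CCAAT and no TATAAA, Hist1h4k held TATAAA and no CCAAT, and Hist1h4h and Hist4h4 held neither. The cell cycle homology letters TTTGAA were present in 4 of 9 (17.9% of all windows), and the letters AAACACA of the H1 box in Hist1h1b and Hist1h2ab (7.18% of all windows). The window of Hist1h2bg overlaps that of the H2A gene H2ac8 on the opposite strand. The 4 sets of E2F letters searched together, TTTCCCGC, TTTGGCGC, TTTCGCGC and TTTGCCGC, were present in 0 of 9 and in 2.26% of all windows. No set of searched letters contains another, and a match is a description of letters, not a bound site.

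The linker histone genes Hist1h1b, for H1.5, and Hist1h1a, for H1.1, were both higher in the tumour-bearing mice. Hist1h1b had a lowest value of 11.92, a median of 12.10 and a highest value of 12.42 in the mice, against 9.87, 9.08 and 10.07 in the pools. Pool 2 was the lowest sample of all, and the groups lay 1.85 apart at their nearest. The difference was 2.46 ± 0.21 (SE), or 5.51-fold. Hist1h1a had a lowest value of 7.28, a median of 7.51 and a highest value of 7.78 in the mice, against 5.72, 5.52 and 5.61 in the pools. The 6 mice lay within 0.50 of each other and the 3 pools, each of 3 animals, within 0.19, with a gap of 1.56 between the groups. The difference was 1.89 ± 0.11 (SE), or 3.71-fold, and all 3 pools were below their array medians.

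The core histone rows of the H2A and H2B types had differences between 1.38 and 2.33. Hist1h2ab, an H2A gene, had a lowest value of 12.07, a median of 12.33 and a highest value of 12.48 in the mice, against 10.68, 11.09 and 10.76 in the pools. The mice spread over 0.41 and the pools over 0.41, and the difference was 1.48 ± 0.12 (SE), or 2.78-fold. Hist1h2bh, an H2B gene, had a lowest value of 5.84, a median of 6.84 and a highest value of 8.20 in the mice, against 4.58, 4.57 and 4.72 in the pools. The mice spread over 2.36 while the pools lay within 0.15. All 3 pools were below their array medians, and mouse 6 was below its own. A pool mixes cells of 3 mice, so in these rows the spreads of mice and of pools are not like measures. Its difference was 2.33 ± 0.45 (SE), or 5.01-fold. Hist1h2bg, another H2B gene, had a lowest value of 9.59, a median of 9.64 and a highest value of 10.64 in the mice, against 8.38, 8.62 and 8.50 in the pools. Mice 5 and 6 had the same value to 5 decimals. Such equal values between mice occur in 38.0% of all rows of the table. The difference of Hist1h2bg was 1.38 ± 0.25 (SE), or 2.60-fold, and mouse 1 stood above the other 5 mice.

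Among the 4 H4 members, which stand for genes that encode the same H4 protein, Hist1h4k had the largest difference; a further H4 row of the table, LOC100041230, is not a member and is described with the other histone genes. It had a lowest value of 9.11, a median of 10.09 and a highest value of 10.99 in the mice, against 7.78, 8.45 and 7.35 in the pools. Both groups were wide, and the nearest mouse and pool were 0.67 apart. The difference was 2.26 ± 0.39 (SE), or 4.78-fold. Hist2h4 had a lowest value of 8.46, a median of 8.74 and a highest value of 9.28 in the mice, against 7.93, 7.36 and 7.32 in the pools, a difference of 1.26 ± 0.20 (SE). Hist4h4, a gene outside the large clusters, had a lowest value of 8.07, a median of 8.35 and a highest value of 8.52 in the mice, against 6.97, 7.44 and 6.88 in the pools, a difference of 1.23 ± 0.15 (SE). These rows kept a gap between mice and pools of 0.54 and 0.64. Hist1h4h had a lowest value of 11.82, a median of 11.86 and a highest value of 11.99 in the mice, against 10.72, 10.74 and 11.03 in the pools. Its mice had the smallest SD of any member and its difference, 1.04 ± 0.07 (SE), or 2.06-fold, was the smallest; without pool 1 it was 0.989 and without pool 2 0.999, under 2-fold. It stands just inside the authors' 2-fold minimum, where the smallest absolute difference in their table is 1.0003, and rows just outside it have no name here. The differences of Hist2h4 and Hist4h4 lay within 1 SE of each other. Identity between the coding sequences of the H4 genes was not computed. Their rows may share signal, and how far they do was not tested.

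**Figure D3:**
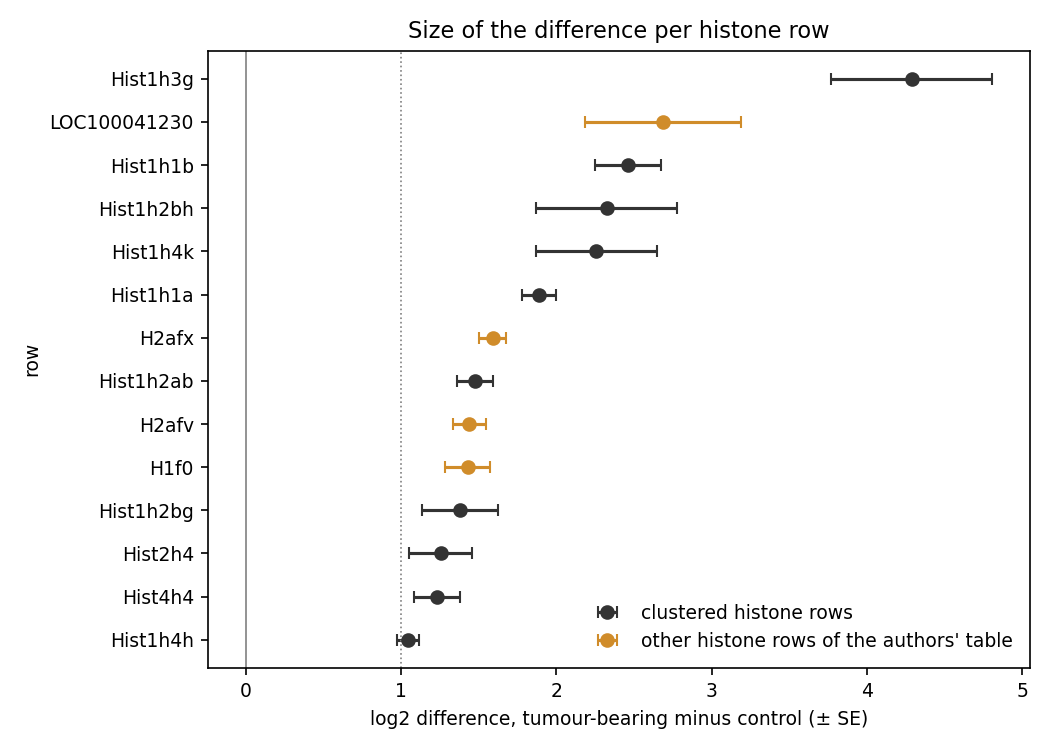
Log2 difference with the SE of the limma fit (horizontal axis) for the 10 clustered histone rows and 4 other histone rows of the authors' table; the dotted line marks 2-fold. Hist1h3g lies apart at 4.29, and the other members lie between 1.04 and 2.46.

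The members differed among themselves in how much they varied between mice. The SD over the 6 mice was 0.88 for Hist1h3g, 0.82 for Hist1h2bh, 0.61 for Hist1h4k and 0.44 for Hist1h2bg, against 0.06 for Hist1h4h. Over all rows of the array the median SD among mice was 0.11, and 99.8% of rows had a smaller SD than Hist1h3g. Among the 513 named rows that were higher, Hist1h3g ranked 2nd, Hist1h2bh 4th and Hist1h4k 6th by this SD, while Hist1h4h ranked 506th. Hist1h3g spanned 2.51 among mice on the log2 scale, or 5.69-fold, and Hist1h4h 0.17, or 1.12-fold. Hist1h3g and Hist1h2bh had all 3 pools below their array medians, and Hist1h2bh also had 1 mouse below. Hist1h4k had its wide spread with all 9 samples above their array medians. Hist1h1a, with its 3 pools below them and its 6 mice above, had an SD of 0.19 among mice. The part of signal level in the spread was not tested.

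The same mice were high and low across most members. Mouse 1 was the highest mouse in 9 of the 10 members, the exception being Hist1h4h, and mouse 6 was the lowest, or tied for lowest, in 9, the exception being Hist1h1b. Among the named rows that were higher, 65.9% had their highest value in mouse 1, against 21.5% of all rows. Mouse 1 was highest and mouse 6 lowest or tied for lowest together in 8 of the 10 members, in 50.3% of the named rows that were higher and in 7.64% of all rows. Mouse 3 lay above mouse 2 in 7 of the 8 core histone members and in 0 of the 2 H1 members. Among the named genes of DNA replication mouse 3 lay above mouse 2 in 2 of 31. The share was 36.5% among the named rows that were higher and 45.8% over all rows. This ordering of mice 2 and 3 was noticed after the values were seen and has no test. In Hist1h3g the order of the mice was 1, 3, 5, 2, 4 and 6, at 9.40, 8.99, 8.76, 8.37, 8.07 and 6.89, and Hist1h2bh kept the same order.

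**Figure D4:**
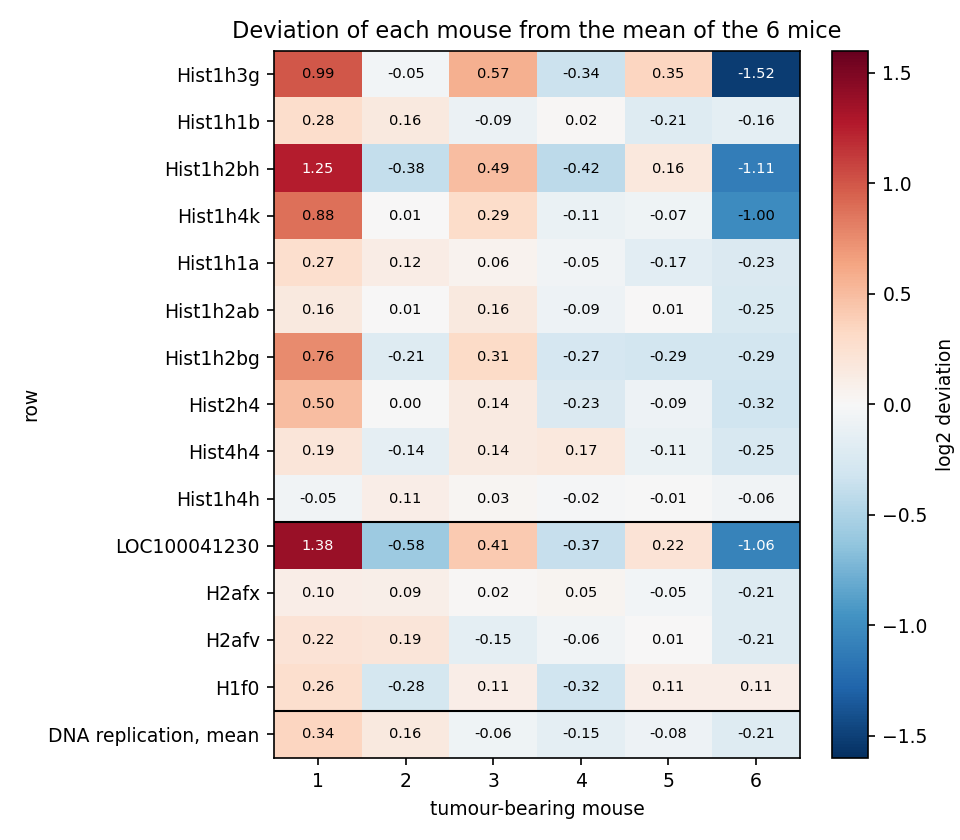
Deviation of each tumour-bearing mouse (columns) from the mean of the 6 mice, in log2 units, for the 10 members, 4 other histone rows and the mean of the 31 named DNA replication genes. Mouse 1 is high and mouse 6 low in most rows, and mouse 2 lies above mouse 3 for the DNA replication mean but below it for Hist1h3g.

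Agreement between members over the 6 mice was measured for all 45 pairs, where both rows of a pair share each mouse's RNA and array. Pearson's r had a median of 0.71 and was positive for 42 pairs. Over all pairs of the 513 named higher rows the median r was 0.63, and over pairs of the named DNA replication genes it was 0.93. The highest r was that of Hist1h3g with Hist1h2ab, at 0.967 (rho = 0.943), with an exact two-sided permutation p of 0.00278, 0.0521 after Benjamini-Hochberg adjustment over the 45 pairs, and r was 0.895 without the 2 mice farthest from the median of Hist1h3g. Hist1h3g and its neighbour Hist1h2bh had r = 0.947 (exact permutation p = 0.00694, adjusted p = 0.0521) and rho = 1, with an exact permutation p of 0.00278 for rho and an adjusted p of 0.0313; without the 2 farthest mice r was 0.963. By Pearson's r 0 of 45 pairs passed an adjusted p of 0.05 in the exact permutation test, and 16 had an unadjusted p under 0.05. An r above 0.9 was held by 20% of the member pairs. The share was 14.9% for pairs of the named higher rows and 59.4% for pairs of the named DNA replication genes. By Spearman's rho 4 pairs passed: Hist1h3g with Hist1h2bh, and Hist1h4k with Hist1h2ab and with Hist2h4, and Hist1h2ab with Hist2h4. Hist1h4k, Hist1h2ab and Hist2h4 had the same order of mice, with rho = 1 for each of their pairs, so those pairs are not separate results. Hist1h4k and Hist2h4 are both H4 genes, whose rows may share signal. The share of other pairs that would pass was not computed, so nothing particular to the members is read from these counts. Hist1h4h had r between -0.21 and 0.29 with the other 9 members. Its mice spanned only 0.17 on the log2 scale, and the part of measurement noise in its values was not tested.

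The relation to DNA replication genes was examined after the values were seen. The mean of the 31 named genes stood at 8.61, 8.42, 8.20, 8.12, 8.19 and 8.06 in mice 1 to 6, against 6.77, 6.45 and 6.74 in the pools. Mouse 1 was highest and mouse 6 lowest, as in most histone rows. Over the 6 mice this mean had r = 0.90 with Hist1h1a (exact permutation p = 0.0111, adjusted p = 0.0787 over 10 members; rho = 0.943, exact permutation p = 0.0167, adjusted p = 0.0417), and r was 0.631 without the 2 farthest mice. With Hist1h3g r was 0.693 (exact permutation p = 0.119, adjusted p = 0.171), and 0.984 without the 2 farthest mice. Its rho was 0.829 (exact permutation p = 0.0583, adjusted p = 0.0833). With Hist1h1b r was 0.872 (exact permutation p = 0.0236, adjusted p = 0.0787), and -0.129 without the 2 farthest mice. The mice left out were those farthest from the median of the replication mean, and r over so few mice is only a description. By Pearson's r 0 of 10 members passed after adjustment in the exact permutation test, with 4 at an unadjusted p under 0.05, and by rho 4 passed (Hist1h4k, Hist1h1a, Hist1h2ab and Hist2h4). The same relation was not computed for the other named rows, so the share of them that would pass is not known. Of the named rows that were higher, 65.9% had their highest value in mouse 1. Nothing particular to the members is therefore read from these counts. In the pools the replication mean was lowest in pool 2, as were Hist1h1b, Hist1h1a and Hist1h2bh, while Hist1h3g, Hist1h4k, Hist1h2ab, Hist1h2bg and Hist4h4 were highest in pool 2.

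Other histone genes of the authors' table, which the naming rule does not take in, were also higher. LOC100041230, named in the table as similar to histone H4 and listed by RefSeq as H4c17, had a lowest value of 5.67, a median of 6.66 and a highest value of 8.12 in the mice, against 3.54, 4.19 and 4.42 in the pools. Its difference was 2.69 ± 0.50 (SE) and its mice spread over 2.45, in the order of Hist1h3g except that mouse 4 lay above mouse 2. Of 11 genes for histone variants 4 had a named row and all 4 were higher, as were 513 of the 964 named rows. They were H2afx (1.59 ± 0.09 SE), for the H2A.X that is phosphorylated at DNA breaks, H2afv (1.44 ± 0.11), for an H2A.Z protein, H1f0 (1.43 ± 0.15), for the linker histone of non-dividing and differentiating cells, and Cenpa (1.13 ± 0.08), for the H3 variant of centromeres. H1f0 had a lowest value of 9.05, a median of 9.47 and a highest value of 9.63 in the mice, against 8.09, 7.73 and 7.99 in the pools. Mice 2 and 4 were its lowest. A second Cenpa row had a difference of 1.51 ± 0.09.

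Genes that act on histones or their mRNAs were also higher where they had a named row. The authors had chosen every named row for change on these samples, so these counts describe the rows and are no evidence of their direction. Of the 964 named rows, 513 were higher, which is 1.62% of all rows of the array. The median difference of those 513 was 1.40. Of 25 genes for histone chaperones and chromatin assembly 10 were named and all 10 were higher, with a median difference of 1.56. Asf1b, a chaperone that hands H3 and H4 to the assembly factors of replicating DNA, had a lowest value of 11.72, a median of 11.80 and a highest value of 12.01 in the mice, against 9.88, 9.40 and 9.92 in the pools, a difference of 2.10 ± 0.12 (SE). Chaf1a, the large subunit of chromatin assembly factor 1, differed by 1.42 ± 0.11. Hat1, which acetylates new H4, differed by 1.29 ± 0.13. Of 19 genes for histone gene transcription and histone mRNA processing 4 were named and all 4 were higher, with a median of 1.40. Ccne2 and Ccne1, the E cyclins, differed by 1.73 ± 0.13 and 1.37 ± 0.11, and Cdk2, their kinase, by 1.43 ± 0.08. Ncbp1, of the nuclear cap-binding complex, differed by 1.17 ± 0.07. Npat, a coactivator of histone gene transcription, Slbp, for the protein that binds the stem-loop of histone mRNAs, and Casp8ap2 and Lsm11, for proteins that take part in histone mRNA processing, had no named row. Of 25 histone-modifying enzymes 7 were named and all 7 were higher, with a median of 1.22. The largest differences were those of the kinase genes Bub1 (2.48 ± 0.16), Aurkb (2.01 ± 0.11) and Ttk (1.78 ± 0.13). The H3K27 methyltransferase gene Ezh2 (1.21 ± 0.10) and the H3K9 methyltransferase gene Suv39h1 (1.22 ± 0.08) were also among the 7. Among 45 genes of DNA replication, a named row existed for 31, each of them higher, with a median of 1.66 beside 1.68 for the clustered histone rows.

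The named rows whose pattern over the 6 mice was most like that of Hist1h3g, by Pearson's r, were Hist1h2ab (0.967), Hist1h4k (0.956), Cln6, for a membrane protein of the endoplasmic reticulum (0.953), Hist1h2bh (0.947) and Bckdk, for a kinase of branched-chain amino acid breakdown (0.942). So 3 of the 5 were other clustered histone rows, and 13 named rows in all had r above 0.9. For Hist1h4h, whose mice spanned only 0.17 on the log2 scale, the 5 most like rows held no histone. They were the predicted gene EG628747 (0.978), Pira3 (0.945), for an activating immunoglobulin-like receptor, which was lower in the tumour-bearing mice at -1.11, the predicted gene ENSMUSG00000072632 (0.904), the clone 9130403I23Rik (0.898), which was lower at -2.11, and Xk, for a red cell membrane protein (0.867). With 6 mice and 964 named rows, values of r this high are described and not tested.

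Adding a constant to the linear values before taking logarithms reduced the differences of all 10 members. The reduction was largest in the 3 rows whose pools lay below the array median. With a pseudocount of 16 the difference of Hist1h3g was 3.41, and with 64 it was 2.34. Hist1h1b, above the array median in every sample, stayed at 2.44 and 2.37, so that with 64 it was the member with the largest difference. Hist1h2bh stood at 1.80 and 1.12 and Hist1h1a at 1.61 and 1.12, while Hist1h2ab stayed at 1.47 and 1.45. Hist4h4, whose pools lay above their array medians, went from 1.23 as deposited to 0.94 with 64. All 10 differences remained above 0 under both.

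**Figure D5:**
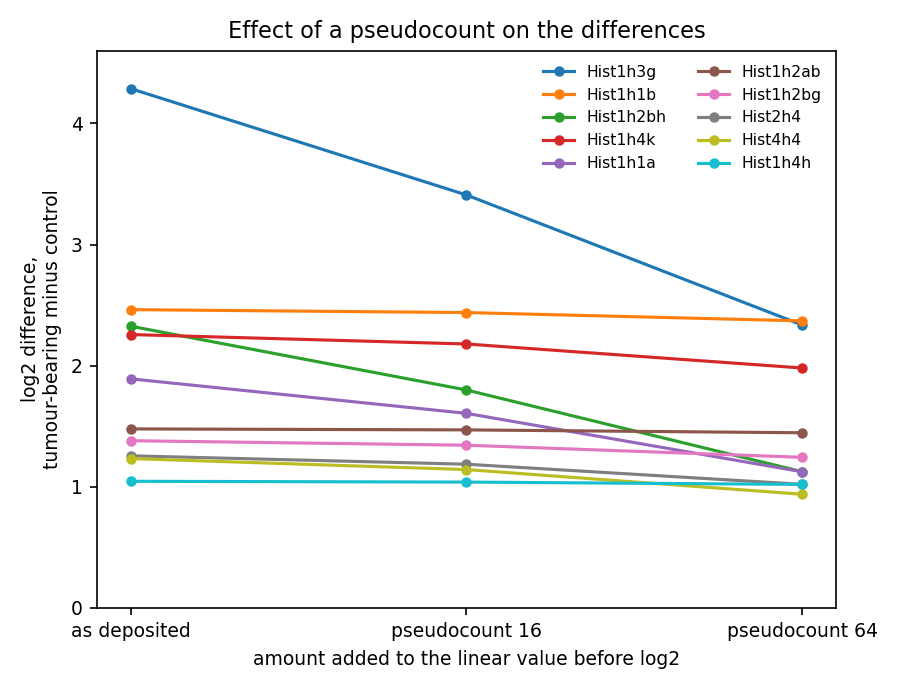
Log2 difference, tumour-bearing minus control (vertical axis), of the 10 members as deposited and with 16 or 64 added to the linear values. Hist1h3g drops from 4.29 as deposited to 2.34 with 64, below Hist1h1b at 2.37, while Hist1h2ab and Hist1h4h change little.

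Markers of the cells a CD11b+Gr1+ gate could hold were mostly unnamed, so their levels could not be summed over a full list. Of 10 neutrophil and monocyte markers 3 were named. Mpo and Elane, made by neutrophil precursors, were higher by 4.03 ± 0.26 and 3.25 ± 0.28 (SE), and Csf3r was lower at -1.01 ± 0.10. The mean of these 3, of which 2 were higher and 1 lower, lay between 11.54 and 12.09 in the mice. In the pools it lay between 9.38 and 10.03. As the 3 moved in different directions, their mean is no measure of the amount of a cell type. Of 7 erythroid markers only Tfrc, the transferrin receptor gene that dividing cells also express, was named, at 7.05 to 7.96 in the mice and 5.99 to 6.33 in the pools. Of 6 B cell markers only Cd22 was named, at 6.01 to 6.4 in the mice and 8.18 to 8.58 in the pools. T and NK cell markers and platelet markers had 0 named rows. The part of these cells in the histone differences was not tested.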

How the data were processed

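Total RNA of sorted CD11b+Gr1+ spleen cells was amplified, labelled and hybridised to 9 Affymetrix arrays, per the labels' protocols. The authors deposited log2 expression values, normalized across arrays; mm9, RMA, PLIER and Affymetrix Power Tools are named in the submitters' processing notes, without saying which made the final values. The log2 scale was read from the values (1.95 to 13.95). Arrays give no counts, and their number limits the precision. The value table has 31648 rows without gene names; the 964 rows of the authors' table, selected per the series design at p under 0.001 and at least 2-fold, were matched to it on all 9 values and supplied the names. Current names came from RefSeq GRCm38.p6, by accession for 9 members and synonym for 1.

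All rows were fitted with limma 3.58.1 in R 4.3.3 (lmFit, eBayes, two-sided, Benjamini-Hochberg over 31648 rows, threshold 0.05). It gave the SE and the calls over all rows. Pairs of rows over 6 mice were compared with exact permutation of the 720 orderings of mice. Replicates are single mice or pools. Members, lists and rules were chosen with earlier results of these data known. The text names all members and a choice of the list genes with a named row, not every one. For the members with the largest and smallest difference it also names the 5 named rows of most similar pattern. Where a gene had several rows, the brightest was used. The relation to the mean of replication genes was added after seeing the data. Alternatives were median centring, quantile normalization, pseudocounts of 16 and 64, medians, linear means, a filter on dim rows, other tests, the replicate number as a block and leaving out each sample.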

Additional observations from a re-analysis of the deposited data

How the results depend on the processing

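All 160 differences of the 10 members under 16 alternatives kept their direction, and 154 moved by less than 1 SD between replicates. The other 6 came from pseudocounts, with which the median difference was 1.54 (16) and 1.18 (64), against 1.68; with 64 Hist4h4 stood at 0.94 and 9 of 10 members were at least 2-fold. Leaving out 1 sample gave a median difference of 1.64 to 1.73, with 3.97 to 4.59 for Hist1h3g and 0.99 to 1.15 for Hist1h4h. Leaving out 1 mouse gave a median SD among mice of 0.18 to 0.27 and a median r of 0.60 to 0.81. Of all rows 7333 were called, against 3812 with the Welch test, 4289 with the replicate block, which uses fewer samples, and 6201 to 7113 without 1 sample. Same-numbered samples had correlations of deviations of 0.09, 0.01 and 0.02, so number was not taken as a pairing; with the replicate block the median difference of the members was 1.85. No background call was available, so the sizes of the Hist1h3g, Hist1h2bh and Hist1h1a differences, whose pools lay below the array median, are the least certain.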
